A study of Mus musculus with 8 samples.

Results

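The Wnt ligands, receptors, antagonists and targets described here are 41 genes, chosen by symbol from the 41079 genes of the count tables. They comprise 8 Wnt ligands, 10 Frizzled receptors, 6 Lgr receptors and R-spondins, 8 antagonists, and 9 target genes and feedback regulators. RNA was taken on the day of birth (P0) from the organ of Corti, the cochlear epithelium that holds the hair cells, after micro-dissection, and sequenced after depletion of ribosomal RNA. One group has 4 wildtype libraries, and the other has 4 labelled Prox1 knock-out, from mice with Emx2-cre and floxed-Prox1. In these mice Cre is expressed under Emx2, so a deletion would be limited to cells with a history of that driver. The labels name no strain or sex, say nothing of Cre or floxed alleles in the wildtype mice, and do not say whether libraries came from separate or pooled animals. The p-values therefore measure the spread between these libraries, which may be technical.

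Wnt proteins are secreted, lipid-modified ligands that bind Frizzled receptors together with the co-receptors Lrp5 and Lrp6, which stabilises β-catenin and lets it activate genes with TCF and LEF factors. R-spondins bound to Lgr receptors keep Frizzled at the cell surface by blocking the ubiquitin ligases Znrf3 and Rnf43, and secreted antagonists hold the ligands or co-receptors back. In the newborn cochlea, Lgr5 marks a subset of supporting cells that can respond to Wnt signals by dividing or forming hair cells, and Wnt5a with Fzd3 and Fzd6 is known for planar cell polarity.

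The libraries held 29908965 to 42318233 counts. Prox1 itself went against its label. It had 109, 114, 106 and 115 counts-per-million (CPM) in wildtype libraries 1 to 4, and 147, 137, 138 and 134 CPM in the 4 libraries labelled knockout. All 4 of the latter lay above all wildtype libraries, with a log2 fold change of 0.33 ± 0.05 (SE) and a Benjamini-Hochberg adjusted p of 0.0298 by the edgeR quasi-likelihood test. The counts cover the gene as a whole, and reads of its floxed stretch were not analysed here. Directions are therefore given for the libraries as labelled. Markers of supporting cells were abundant in every library, with a summed level of 1725 to 1917 CPM in wildtype, against 1713 to 1843 CPM in libraries labelled knockout over 10 genes. Those 10 include Prox1. At an unadjusted p of 0.05 by edgeR, 3 of them, Fgfr3, S100a1 and Npy, were lower in libraries labelled knockout, beside 2.78% of all tested genes. None of the 3 passed an adjusted p of 0.05. The mean log2 CPM of stria vascularis and melanocyte markers, centred on 0, was 1.29, 0.52 and 0.80 in wildtype libraries 1 to 3 and -0.78 in wildtype library 4, against -0.67 to -0.15 in the libraries labelled knockout. Wildtype libraries 1 to 3 thus lay above the other 5.

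All 41 genes had counts, and 40 passed the low-count filter. The exception was Dkk1, an antagonist that binds Lrp5 and Lrp6, with 1 to 15 counts per library. No member passed an adjusted p of 0.05 in the edgeR quasi-likelihood test after Benjamini-Hochberg adjustment over 20581 tested genes, of which 0.0923% passed. At an unadjusted p of 0.05, 8 members passed, all with lower levels in the libraries labelled knockout: Frzb, Notum, Fzd9, Wnt11, Nkd1, Rspo3, Fzd4 and Wnt7a. That is 20% of the 40, beside 7.55% of all tested genes in either direction, 2.78% of all tested genes on the lower side and 3.59% of protein-coding tested genes on the lower side. Of the 40 log2 fold changes, 32 lay below 0 and 8 above. Their median was -0.07, against 0.00 over all tested genes and -0.03 over 15170 protein-coding ones, of which 60% lay below 0. The lean towards lower values varied with the setting: 24 of the 40 lay below 0 without wildtype library 3, and 21, with a median of -0.02, without the wildtype libraries 1 and 3. Other settings raised it, to 34 with a median of -0.10 without wildtype library 2. It rose to 35 with a median of -0.09 when library 4 labelled knockout was left out. With the mean log2 CPM of mesenchyme or of stria markers as a covariate, 23 and 26 lay below 0, with medians of -0.02 and -0.03. For 34 of the 40 members the 95% confidence interval lay within a 1.5-fold difference in either direction, and for 38 within a 2-fold difference. The wider intervals belonged to Wnt4, Wnt11, Rspo1, Rspo3, Frzb and Dkk2. The number of members past an unadjusted p was 5 without wildtype library 3 and also 5 when library 1 or 2 labelled knockout was left out, and 3 when library 3 labelled knockout was. It was 9 without wildtype library 2 and 11 when library 4 labelled knockout was left out. Without both wildtype libraries 1 and 3 it was 4, of which 1 had the higher level in the libraries labelled knockout.

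**Figure D1:**
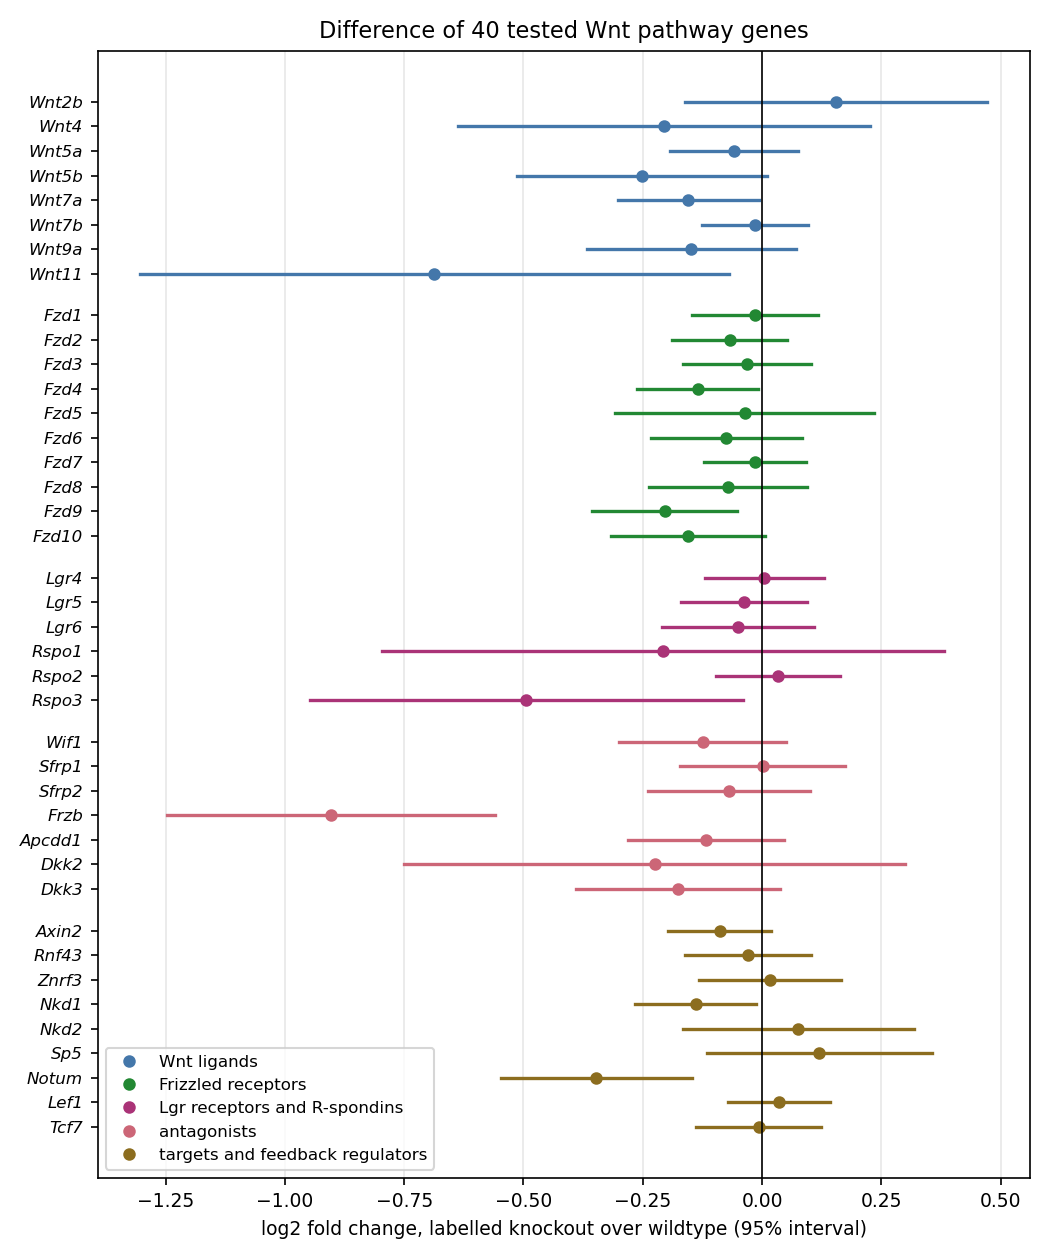
Log2 fold change of each tested member, libraries labelled knockout over wildtype (x axis), with its 95% confidence interval from edgeR as a line, grouped by role in colour. Most points lie between -0.25 and 0.16, with Frzb at -0.90, Wnt11 at -0.69, Rspo3 at -0.49 and Notum at -0.35 further to the left.

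Frzb, which encodes a secreted Frizzled-related protein that binds Wnt ligands, showed the difference with the smallest p. Its level was 43.7, 29.6, 38.8 and 25.8 CPM in wildtype libraries 1 to 4, and 16.7, 15.7, 19.1 and 22.4 CPM in the libraries labelled knockout 1 to 4. The groups did not overlap. Frzb was the single member of which this was true, and 1.62% of all tested genes were likewise lower in all 4 libraries labelled knockout. Means were 34.5 ± 8.24 CPM in wildtype, against 18.4 ± 2.97 CPM in libraries labelled knockout (SD, n = 4 per group). The log2 fold change was -0.90 ± 0.16 (SE; 95% interval -1.25 to -0.56), 1.87-fold higher in wildtype, with a Benjamini-Hochberg adjusted p of 0.0816 by edgeR. In the authors' deposited table, made with DESeq2, Frzb had a log2 fold change of -0.91 ± 0.16 (SE) and an adjusted p of 7.96e-06. It was the 1 member of 40 with an adjusted p that was called there, where 0.45% of 19111 genes were called.

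Whether Frzb passed thus differed between tools and settings. Its adjusted p was 1.53e-05 with DESeq2 and 0.00248 with edgeR without a low-count filter, 0.0234 without wildtype library 4 and 0.0432 when library 4 labelled knockout was left out, after Benjamini-Hochberg adjustment in each. It did not pass in the other 12 alternatives. Its adjusted p was there 0.111 with the stricter filter, 0.217 with the replicate number as a block and 0.064 to 0.349 with 1 of the other 6 libraries left out, by edgeR. Without the wildtype libraries 1 and 3 its log2 fold change was -0.59 ± 0.13 (SE; Benjamini-Hochberg adjusted p = 0.478 by edgeR). Those libraries held higher values of Frzb than the other wildtype libraries, and likewise of Rspo3, Fzd9 and Axin2. Leaving them out therefore shrinks these differences by construction.

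Within wildtype, but not within the libraries labelled knockout, Frzb varied alongside some markers of the stria vascularis, the ion-transporting tissue beside the organ of Corti. Kcne1, a potassium channel subunit of stria marginal cells, had 13.9, 4.53, 8.52 and 1.94 CPM in wildtype, against 1.90, 0.95, 0.93 and 0.85 CPM in libraries labelled knockout. Esrrb, a nuclear receptor gene of the same cells, had 32.4, 14.0, 21.4 and 3.29 CPM in wildtype, against 8.21, 3.75, 3.80 and 3.31 CPM in libraries labelled knockout. Among the libraries labelled knockout, Frzb was highest in library 4, at 22.4 CPM, where Kcne1 and Esrrb were lowest. Within wildtype, Frzb, Kcne1 and Esrrb were highest in library 1, then in 3, 2 and 4. Kcne1 and Esrrb were chosen after their values were seen, and not all genes of the list shared that order: the potassium channel gene Kcnj10 had 37.8, 48.1, 39.4 and 47.3 CPM in wildtype libraries 1 to 4, and the cotransporter gene Slc12a2 was highest in library 3 and lowest in library 2. Over the whole list, 8 of 9 tested stria and melanocyte markers lay below 0, and the summed level of the 10 genes was 978 to 1170 CPM in wildtype, against 874 to 1014 CPM in libraries labelled knockout. No gene of the list was at 0 in all libraries, while the melanocyte enzyme gene Tyrp1 was at 0 in wildtype library 4. Of the periotic mesenchyme markers 10 of 11 lay below 0, and their sum was 6909 to 8196 CPM in wildtype, against 5840 to 6929 CPM in libraries labelled knockout. That lean was not particular to these 2 lists, as 59 of 69 tested markers over all lists lay below 0. Among them were 8 of 8 for neurons and glia, 7 of 7 for endothelium and pericytes, 6 of 10 for supporting cells and 6 of 9 for hair cells. Of all protein-coding tested genes, 60% lay below 0. Blood and macrophage markers summed to 1800 to 4085 CPM in wildtype, highest in library 1, against 1446 to 2600 CPM in libraries labelled knockout. With the mean log2 CPM of the stria list as a covariate, a fit chosen after seeing the data, the log2 fold change of Frzb was -0.56 ± 0.15 (SE; unadjusted p = 0.0032, Benjamini-Hochberg adjusted p = 0.999 by edgeR). It was -0.48 ± 0.15 (SE; unadjusted p = 0.00624, Benjamini-Hochberg adjusted p = 1 by edgeR) with that of the mesenchyme list. The mesenchyme mean, centred on 0, was -0.044 to 0.197 in wildtype and -0.164 to -0.002 in libraries labelled knockout. The stria mean was -0.777 to 1.294 in wildtype, with libraries 1 to 3 above all others, and -0.666 to -0.149 in libraries labelled knockout. Both fits, here and for the genes below, therefore separate the list mean from the group labels only in part. The part of these tissues in the difference of Frzb was not tested beyond those fits. In bulk RNA, fewer cells of a type and less RNA per cell cannot be told apart.

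**Figure D2:**
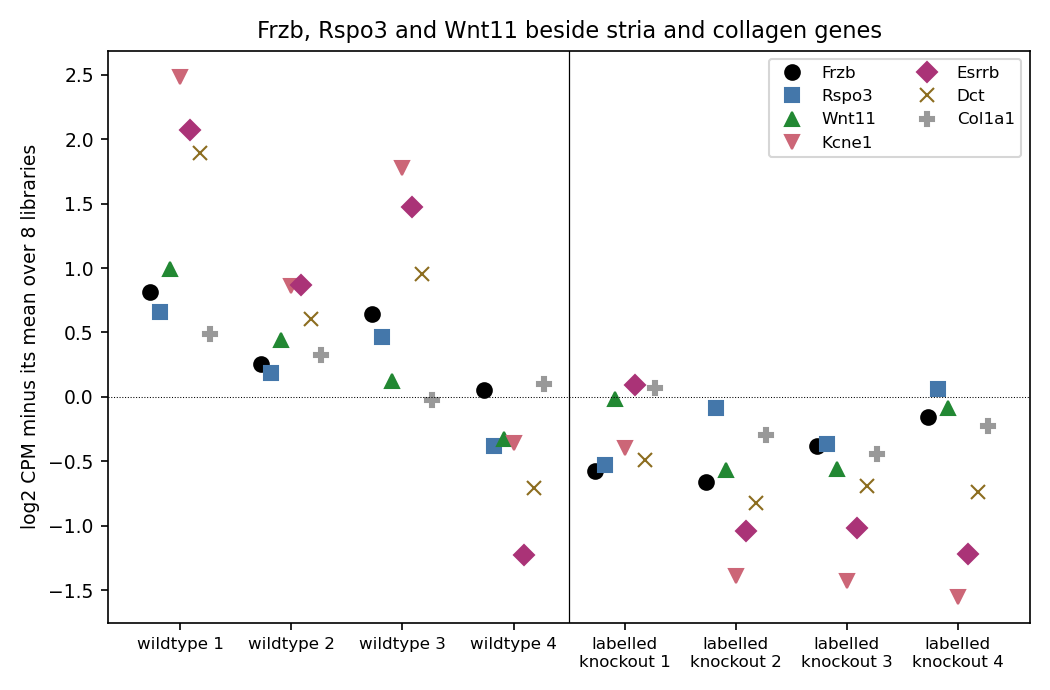
Log2 CPM minus the gene's own mean over the 8 libraries (y axis) for Frzb, Rspo3, Wnt11, the stria and melanocyte genes Kcne1, Esrrb and Dct, and the collagen gene Col1a1, by library (x axis, wildtype left of the line). Frzb, Kcne1 and Esrrb are highest in wildtype libraries 1 and 3, where Kcne1 reached 13.9 and 8.52 CPM, and wildtype library 4 lies near the libraries labelled knockout for Kcne1, Esrrb and Dct. The marker genes shown are among the lowest of their lists, with a log2 fold change of -2.66 for Kcne1 and -0.45 for Col1a1. Genes of those lists that are not shown include Mitf at 0.01, Kcnj10 at -0.13 and Lum at -0.05.

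The other antagonists spanned a wide range of levels. Compared per kilobase of exon in wildtype, Sfrp1 led with 123 CPM per kb, then Dkk3 with 101 and Sfrp2 with 32.1, followed by the membrane-bound inhibitor gene Apcdd1 with 21.5, Wif1 with 15.8, Frzb with 10.7, Dkk2 with 4.56 and Dkk1 with 0.075. No neighbours in that order overlapped between libraries. Here and below, that spread leaves out any error of the exon lengths, on which the order depends. In CPM, Apcdd1 had a wildtype mean of 277 and Sfrp2 of 69.2. Sfrp1, a secreted Frizzled-related protein, had 576, 483, 584 and 512 CPM in wildtype, against 529, 493, 528 and 606 CPM in libraries labelled knockout. These ranges overlapped throughout, and the log2 fold change was 0.00 ± 0.08 (SE; 95% interval -0.17 to 0.17). The Dickkopf family member Dkk3 had 294 to 364 CPM in wildtype, against 271 to 369 CPM in libraries labelled knockout (log2 fold change -0.18 ± 0.10, SE). For Wif1, which binds Wnt ligands, the log2 fold change was -0.12 ± 0.08 (SE), for Apcdd1 -0.12 ± 0.07, for Sfrp2 -0.07 ± 0.08 and for Dkk2 -0.23 ± 0.24. Of the 7 tested antagonists 6 lay below 0, with a median of -0.12.

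**Figure D3:**
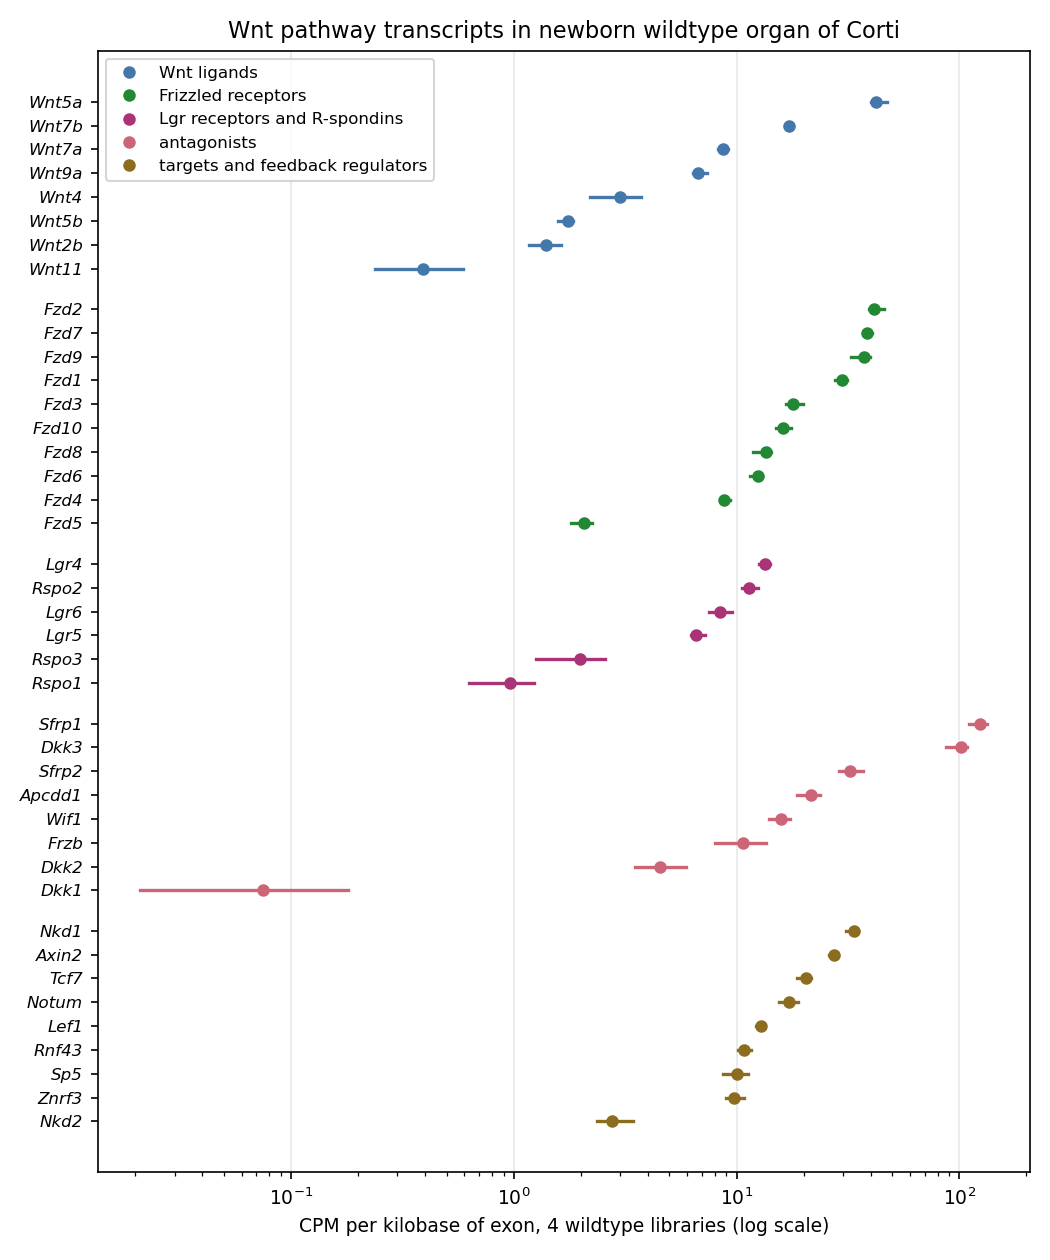
Level of each of the 41 genes in wildtype, in CPM per kilobase of merged exon (x axis, log scale), with the mean as a point and the lowest to highest of 4 libraries as a line, ordered within each role. Sfrp1 at 123 and Dkk3 at 101 CPM per kb stand highest, and Dkk1 at 0.075 lowest.

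Among the ligands, Wnt5a, the ligand best known for signalling without β-catenin, was by far the most abundant. In wildtype it had 42.1 CPM per kb, against 17.1 for Wnt7b, 8.70 for Wnt7a, 6.69 for Wnt9a and 3.01 for Wnt4, none of which overlapped a neighbour. Wnt5b, at 1.75 CPM per kb, overlapped Wnt2b, at 1.39, and Wnt11 came last at 0.391. Wnt5a had 317, 317, 370 and 315 CPM in wildtype, against 303, 327, 313 and 322 CPM in libraries labelled knockout. Apart from the high wildtype library 3, the groups overlapped, with a log2 fold change of -0.06 ± 0.06 (SE; 95% interval -0.19 to 0.07).

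Wnt11, another ligand of the β-catenin-independent branch, had the lowest fold change of the ligands on few counts, 28 to 95 per library. Its values were 2.46, 1.68, 1.35 and 0.99 CPM in wildtype, against 1.22, 0.83, 0.84 and 1.17 CPM in libraries labelled knockout, so the lowest wildtype library lay within the other group. For Wnt11 the log2 fold change was -0.69 ± 0.28 (SE; 95% interval -1.30 to -0.07; Benjamini-Hochberg adjusted p = 0.647 by edgeR). It was -0.41 ± 0.26 (SE) without wildtype library 1, which held the highest value, -0.42 ± 0.30 without wildtype libraries 1 and 3, -0.06 ± 0.28 with the stria covariate and -0.05 ± 0.31 with the mesenchyme covariate.

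Wnt7a, an epithelial ligand of the cochlea, had 26.3 to 28.9 CPM in wildtype, against 23.6 to 27.3 CPM in libraries labelled knockout (log2 fold change -0.15 ± 0.07, SE; Benjamini-Hochberg adjusted p = 0.647 by edgeR). Its close relative Wnt7b had 80.5 to 88.1 and 77.7 to 86.5 CPM (-0.01 ± 0.05). Wnt5b was at -0.25 ± 0.12, Wnt4 at -0.21 ± 0.20 and Wnt9a at -0.15 ± 0.10, while Wnt2b, the 1 ligand above 0, was at 0.16 ± 0.15 (log2 fold change ± SE). Counted together, 7 of 8 ligands lay below 0 with a median of -0.15, and 0 passed.

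All 10 Frizzled receptor genes were expressed. In wildtype, Fzd2, Fzd7 and Fzd9 led with 41.6, 38.5 and 37.3 CPM per kb and overlapped one another in that order. Fzd1 followed at 29.9, Fzd3 at 17.8 and Fzd10 at 16.2, then Fzd8, Fzd6 and Fzd4 at 13.5, 12.5 and 8.79, and Fzd5 at 2.08 CPM per kb. Fzd3 overlapped Fzd10, and Fzd8 overlapped Fzd6. Fzd3, a receptor of the planar polarity pathway and the one with the highest CPM, had 214, 231, 255 and 215 CPM in wildtype. It had 219, 233, 217 and 225 CPM in the libraries labelled knockout, all within the wildtype range (log2 fold change -0.03 ± 0.06, SE; 95% interval -0.17 to 0.10).

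Fzd9 had the smallest p of the receptors. It had 89.8, 75.1, 90.7 and 86.9 CPM in wildtype, against 77.8, 73.9, 67.5 and 78.0 CPM in libraries labelled knockout. Wildtype library 2 was the 1 wildtype library within the range of the other group. For Fzd9 the log2 fold change was -0.20 ± 0.07 (SE; 95% interval -0.36 to -0.05; Benjamini-Hochberg adjusted p = 0.589 by edgeR). It was -0.12 ± 0.08 (SE) with wildtype libraries 1 and 3 left out, -0.09 ± 0.08 with the mesenchyme covariate and -0.17 ± 0.09 with the stria covariate.

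The other receptors differed by less. Fzd4, which also serves as the receptor of the ligand Norrin, was at a log2 fold change of -0.14 ± 0.06 (SE; Benjamini-Hochberg adjusted p = 0.647 by edgeR), and Fzd10 was at -0.16 ± 0.07. Fzd6, the partner of Fzd3 in planar polarity, was at -0.08 ± 0.07. Fzd1, Fzd2, Fzd5, Fzd7 and Fzd8 lay between -0.07 and -0.01. All 10 receptors lay below 0, with a median of -0.07, and each interval lay within a 1.5-fold difference in either direction.

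The genes of the R-spondin arm showed small differences except for Rspo3, and the estimate for Rspo1 was imprecise. In wildtype, Lgr4 had 13.4 CPM per kb, Rspo2 11.4, Lgr6 8.47, Lgr5 6.58, Rspo3 1.99 and Rspo1 0.965, with no overlap between neighbours. Lgr5, the receptor that marks Wnt-responsive supporting cells, had 63.8, 74.0, 68.2 and 64.2 CPM in wildtype. In the libraries labelled knockout it had 69.6, 67.0, 63.4 and 63.2 CPM. The groups overlapped, with a log2 fold change of -0.04 ± 0.06 (SE; 95% interval -0.17 to 0.09). Lgr4, the most abundant R-spondin receptor, had 82.9, 73.9, 82.2 and 77.2 CPM in wildtype, against 76.7, 76.3, 78.3 and 85.9 CPM in libraries labelled knockout. It too overlapped, at 0.00 ± 0.06 (SE; 95% interval -0.12 to 0.13). Lgr6 was at -0.05 ± 0.07 (SE) and Rspo2 at 0.03 ± 0.06.

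Rspo3, a secreted R-spondin, had 7.97, 5.73, 6.97 and 3.88 CPM in wildtype, against 3.49, 4.76, 3.92 and 5.27 CPM in libraries labelled knockout. Wildtype library 4 lay within the range of the other group, and the order of the wildtype libraries was that of Frzb and Kcne1. Among the libraries labelled knockout, Rspo3 was lowest in library 1, where Kcne1 was highest, and highest in library 4, where Kcne1 was lowest. For Rspo3 the log2 fold change was -0.49 ± 0.21 (SE; 95% interval -0.95 to -0.04; Benjamini-Hochberg adjusted p = 0.647 by edgeR). It was -0.15 ± 0.21 (SE) without the wildtype libraries 1 and 3, -0.03 ± 0.22 with the stria covariate and turned to 0.036 ± 0.21 with the mesenchyme covariate. Rspo1 had 1.22 to 2.39 CPM in wildtype, against 1.05 to 2.11 CPM in libraries labelled knockout (log2 fold change -0.21 ± 0.27, SE; 95% interval -0.80 to 0.38), on 31 to 81 counts.

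**Figure D4:**
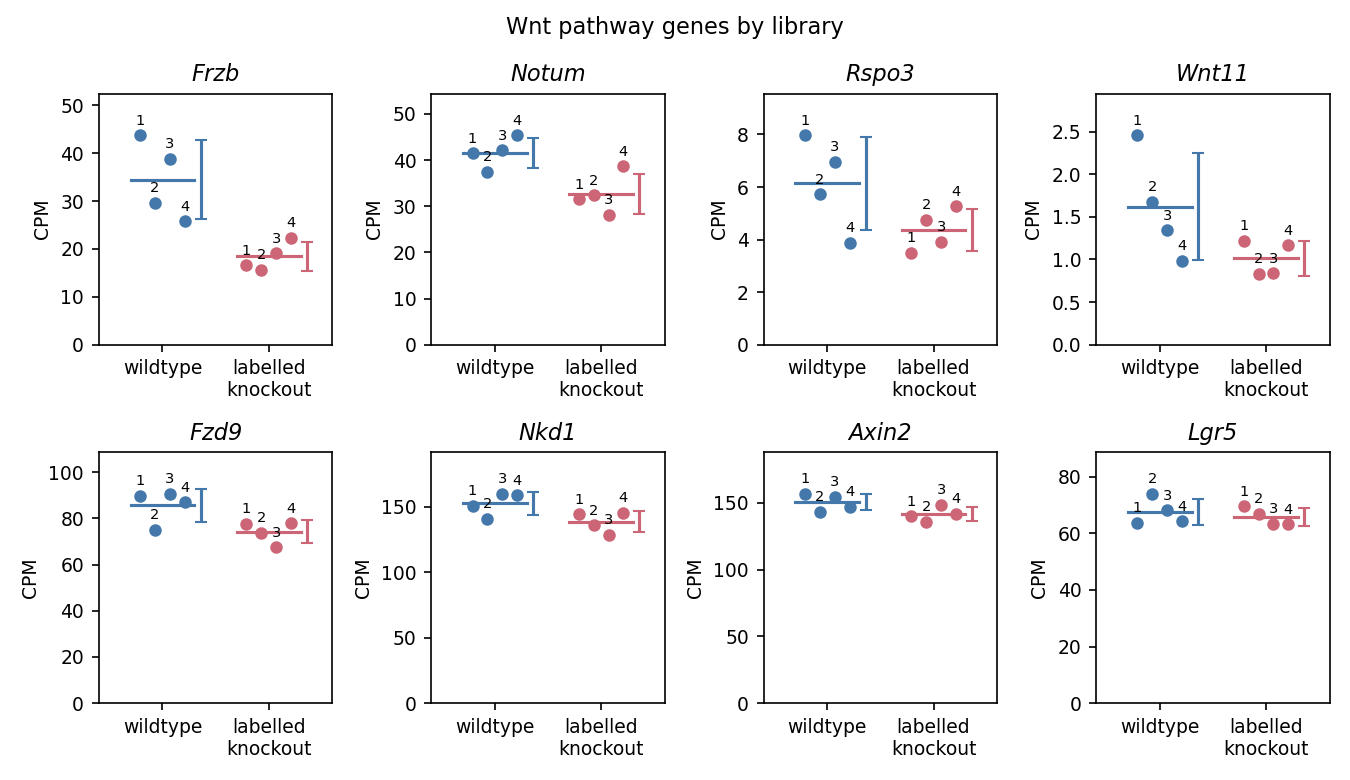
CPM by library (y axis, from 0) for 8 members, with points numbered by library, horizontal lines at the group means and bars showing ± SD (n = 4 per group). Frzb is the 1 gene of the 8 whose groups do not overlap, from 25.8 to 43.7 CPM in wildtype, against from 15.7 to 22.4 CPM in libraries labelled knockout.

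Target genes and feedback regulators, whose transcripts are commonly read as a measure of β-catenin signalling, had a median log2 fold change of -0.01, with 5 of 9 below 0. Axin2, a scaffold of the complex that degrades β-catenin and a widely used target, had 157, 144, 155 and 147 CPM in wildtype, against 140, 136, 149 and 142 CPM in libraries labelled knockout. Library 3 labelled knockout lay among the wildtype values. Axin2 thus had a log2 fold change of -0.09 ± 0.05 (SE; 95% interval -0.20 to 0.02; Benjamini-Hochberg adjusted p = 0.654 by edgeR). It was -0.04 ± 0.06 (SE) with the wildtype libraries 1 and 3 left out, and -0.05 ± 0.06 with either the stria or the mesenchyme covariate. Sp5, a zinc finger repressor gene activated by β-catenin, had 22.1, 18.3, 23.6 and 20.2 CPM in wildtype, against 25.4, 19.0, 21.4 and 25.6 CPM in libraries labelled knockout, at 0.12 ± 0.11 (SE).

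Axin2 and Sp5 lay on either side of 0, and their promoters are shown beside that of Wnt11, the ligand with the lowest fold change, because the target genes of the pathway are bound by TCF and LEF factors. Sequences are the 250 bases before the RefSeq start site, or 30 of them for Wnt11, 5′ to 3′ on the strand of the gene, on GRCm38.p6. They lie at chr11:108920099-108920348 (+ strand) for Axin2, chr2:70474673-70474922 (+ strand) for Sp5 and chr7:98835049-98835078 (+ strand) for Wnt11, outside annotated exons of GENCODE M21. Capitals mark letters of the TCF/LEF type on either strand, which are CTTTGAT and its variants CTTTGAA as well as CTTTGTT.
Axin2: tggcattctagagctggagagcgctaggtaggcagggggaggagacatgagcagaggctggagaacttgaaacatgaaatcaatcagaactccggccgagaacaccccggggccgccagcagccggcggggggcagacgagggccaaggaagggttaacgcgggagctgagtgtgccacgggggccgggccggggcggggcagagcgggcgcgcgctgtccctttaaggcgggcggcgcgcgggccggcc
Sp5: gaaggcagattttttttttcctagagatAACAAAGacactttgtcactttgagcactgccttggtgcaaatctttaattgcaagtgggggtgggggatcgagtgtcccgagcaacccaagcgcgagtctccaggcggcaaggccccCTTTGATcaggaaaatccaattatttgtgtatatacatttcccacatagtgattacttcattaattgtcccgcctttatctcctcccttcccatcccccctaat
Wnt11: tgacgtgggcggATCAAAGcgacggtccgc

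The Sp5 window holds CTTTGAT, starting 104 bases before the start site, and CTTTGTT on the other strand, while the Axin2 window holds none of these letters. A window was found for 27 of the 41 members, and 5 of their 35 windows held at least 1 of the letter strings, from Dkk1, Fzd7, Sp5, Wnt11 and Wnt5b. Over all 32851 windows of the same length, 3.21% held CTTTGAT, 4.46% held CTTTGAA, 5.03% held CTTTGTT and 12.04% held any of them. A match is a description of the letters and not evidence of binding.

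Notum, a secreted enzyme that removes the lipid from Wnt proteins and is itself induced by Wnt signalling, had the second smallest p of the members. It had 41.4, 37.5, 42.1 and 45.3 CPM in wildtype, against 31.6, 32.4, 28.1 and 38.6 CPM in libraries labelled knockout. Library 4 labelled knockout lay above wildtype library 2, and the other 3 lay below all wildtype libraries. Group means were 41.6 ± 3.22 in wildtype against 32.7 ± 4.38 CPM (SD, n = 4 each). This gave a log2 fold change of -0.35 ± 0.09 (SE; 95% interval -0.55 to -0.15; Benjamini-Hochberg adjusted p = 0.421 by edgeR). Within wildtype Notum was highest in library 4, where Frzb was lowest. The log2 fold change was -0.40 ± 0.12 (SE) with the stria covariate, -0.27 ± 0.12 with the mesenchyme covariate and -0.34 ± 0.12 without the wildtype libraries 1 and 3. Notum overlaps the antisense gene Notumos in GENCODE M21, and whether counting used strand is not given in the sources used here. Such overlaps with an exon on the other strand were found for 10 of the 41 members, among them Axin2, Rspo3, Wnt5a and the low-count gene Wnt11.

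Nkd1, which binds Dishevelled and dampens the pathway, had 151, 141, 160 and 159 CPM in wildtype, against 144, 136, 129 and 146 CPM in libraries labelled knockout. Wildtype library 2 lay among the values of the other group, and the log2 fold change was -0.14 ± 0.06 (SE; 95% interval -0.27 to -0.01; Benjamini-Hochberg adjusted p = 0.647 by edgeR). With the mesenchyme covariate Nkd1 was at -0.09 ± 0.07 (SE), with the stria covariate at -0.15 ± 0.08 and without the wildtype libraries 1 and 3 at -0.11 ± 0.07. It missed an unadjusted p of 0.05 in those fits, and also without wildtype library 3 or 4, or when library 2 or 3 labelled knockout was left out. Its paralog Nkd2 had 11.4 to 16.5 CPM in wildtype, against 13.2 to 15.0 CPM in libraries labelled knockout (0.08 ± 0.11). The ubiquitin ligase genes Rnf43 and Znrf3 were at -0.03 ± 0.06 and 0.02 ± 0.07, and the DNA-binding factors Lef1 and Tcf7 at 0.04 ± 0.05 and -0.01 ± 0.06 (log2 fold change ± SE). In wildtype, Nkd1 led the group with 33.5 CPM per kb, then Axin2 with 27.4, Tcf7 with 20.5, Notum with 17.3 and Lef1 with 12.8. Tcf7 overlapped Notum. Rnf43, Sp5 and Znrf3 lay between 9.70 and 10.8 CPM per kb, each overlapping the next, and Nkd2 was lowest at 2.75.

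Of 92 further genes of the pathway, 77 were tested and 0 passed an adjusted p of 0.05 in the edgeR quasi-likelihood test after Benjamini-Hochberg adjustment. None of them passed with DESeq2 either. At an unadjusted p of 0.05 in edgeR, 1 of the 77 passed in each direction. Of all tested genes, 7.55% passed in either direction and 2.78% on the lower side. Tle2, a Groucho-type co-repressor of TCF factors, had 37.0, 44.7, 39.5 and 51.0 CPM in wildtype, against 55.6, 55.6, 56.7 and 45.4 CPM in libraries labelled knockout. Library 4 of each group crossed over, with a log2 fold change of 0.31 ± 0.10 (SE; Benjamini-Hochberg adjusted p = 0.570 by edgeR). Tbx3, a T-box transcription factor gene and Wnt target, had 19.8, 18.0, 21.5 and 19.4 CPM in wildtype, against 13.3, 14.9, 18.2 and 17.5 CPM in libraries labelled knockout. Of its libraries labelled knockout only the third lay above the lowest wildtype value, with a log2 fold change of -0.30 ± 0.10 (SE; Benjamini-Hochberg adjusted p = 0.599 by edgeR).

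Ctnnb1, which encodes β-catenin itself, had 960 to 1112 CPM in wildtype, against 875 to 986 CPM in libraries labelled knockout (log2 fold change -0.15 ± 0.07, SE; Benjamini-Hochberg adjusted p = 0.647 by edgeR). The co-receptor gene Lrp5 was narrowly lower in all 4 libraries labelled knockout, at 125.5 to 133.9 CPM against 134.1 to 149.3 CPM. Its log2 fold change was -0.10 ± 0.05 (SE; unadjusted p = 0.0761, Benjamini-Hochberg adjusted p = 0.647 by edgeR). Lrp5 was the 1 gene of the 77 whose groups did not overlap, beside 1.62% of all tested genes lower in the same way. Wnt6 was at -0.19 ± 0.13 (SE) and the Dickkopf-like gene Dkkl1, on at most 35 counts, at 0.62 ± 0.29. Of the 77 genes 55 lay below 0 and 22 above, with a median of -0.04. Of the 11 ligand genes outside the 41, 3 were tested, namely Wnt3, Wnt6 and Wnt16, and the other 8 had at most 32 counts in any library.

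**Figure D5:**
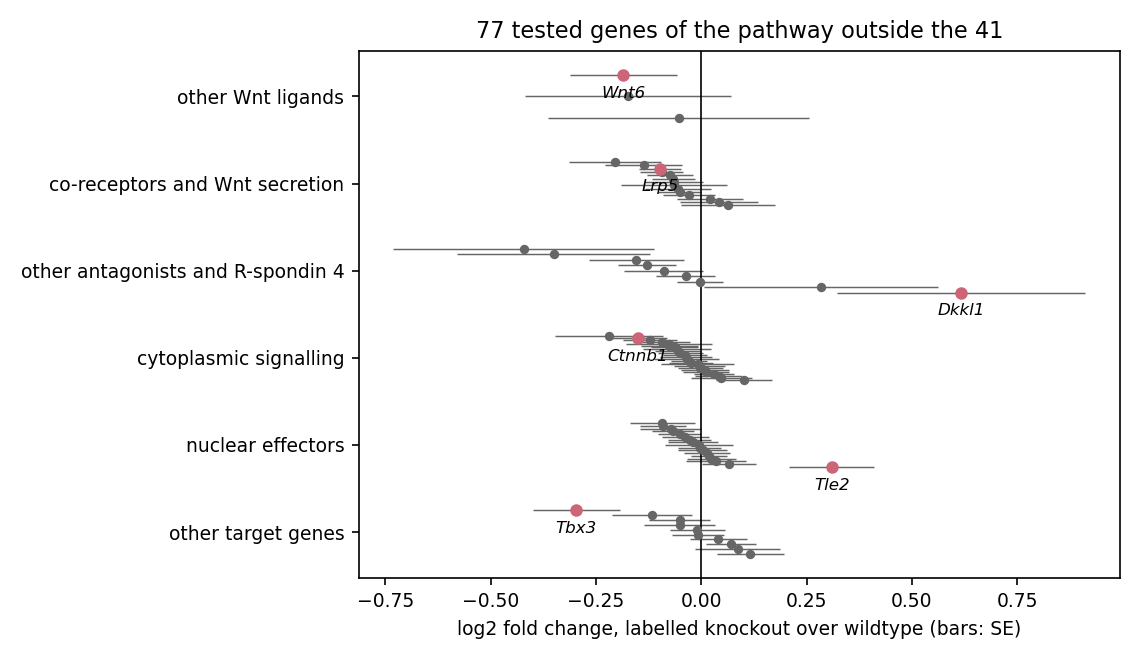
Log2 fold change of the 77 tested genes of the pathway outside the 41, libraries labelled knockout over wildtype (x axis; bars show the SE), by class (y axis). The gene with the smallest p in each class is named, and most points lie close to 0 with Tle2 at 0.31 and Dkkl1 at 0.62 to the right and Tbx3 at -0.30 to the left.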

How the data were processed

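Total RNA of micro-dissected organ of Corti was isolated with RNeasy, depleted of ribosomal RNA and prepared with NEBNext Ultra II, per the labels' protocols. The tools HISAT2 2.2.1, featureCounts, cutadapt 4.3, FastQC 0.12.1 and DESeq2 and the build GRCm39 are named in the submitters' processing notes. Not given in the sources used here are the gene models, whether counting used strand, and how reads with several matches were handled. Whole-number counts for every gene and library were deposited, and beside them a mean and SD of the counts of each group as a signal that was not used. The authors' deposited DESeq2 table holds a log2 fold change with its standard error, a test score, and p-values before and after adjustment, per the file headers. The file does not state its direction, which was taken from the signs of its values.

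The genotype in the labels set the groups. Genes were filtered with filterByExpr (minimum count 10), which kept 20581 of 41079 genes and, in each library, from 99.90 to 99.93% of the counts, and scaled by TMM. The groups were compared with the quasi-likelihood test of edgeR 4.0.16 under R 4.3.3. Genotype was the one term of the model, and p-values were adjusted by Benjamini-Hochberg across the whole table of tested genes. CPM use the TMM factors. SE were taken from the log2 fold change and the F statistic. Levels per kilobase use merged exons of GENCODE M21 on GRCm38, which predates the build named by the submitters, and are approximate. Counting error at these depths is small for most members, and the spread between libraries sets the precision. Libraries within a group differed by more than counting noise, with a chi-square per degree of freedom of at least 10.7 in all 12 pairs. The script was tested on simulated data.

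The members, gene lists, tests and alternatives were chosen with earlier results of these data known. Values in every library are given for the 5 members with the smallest unadjusted p, for the member with the highest CPM and the one with the smallest p in each role, and for Axin2 and Lgr5. Of each further pathway list the gene with the smallest p is named. Sp5 and the marker genes Kcne1 and Esrrb were singled out after their values were seen. The marker genes Dct, Col1a1, Kcnj10, Slc12a2 and Tyrp1 were likewise named or shown outside the rule above. Alternatives were RLE scaling, no filter, at least 50 counts in 4 libraries, DESeq2 1.42.0, the replicate number as a block, each library left out in turn, the wildtype libraries 1 and 3 left out together, and the mean log2 CPM (with a prior of 0.5 counts) of the mesenchyme list or, added after seeing the data, of the stria list as a covariate.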

Additional observations from a re-analysis of the deposited data

Results flagged for a closer look

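In 5 of 82 groups of 4 libraries, 1 library stood apart from the other 3 by Dixon's test at the 95% level, and chance flags about 1 in 20 groups. Wnt2b, a ligand gene, had 5.01 CPM in library 4 labelled knockout and 6.91 to 7.22 CPM in the other 3. Wnt5a had 370 CPM in wildtype library 3, where the others had 315 to 317 CPM. The ligand gene Wnt9a had 24.6 CPM in wildtype library 2, against 21.2 to 21.8 CPM. The receptor gene Fzd8 had 70.9 CPM in wildtype library 1, against 82.7 to 84.9 CPM. Dkk3 had 369 CPM in library 4 labelled knockout, against 271 to 285 CPM in the other 3.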

How the results depend on the processing

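Of 16 alternatives, 15 were planned with earlier results of these data known, and the stria covariate was added after seeing the data. The count of members past an adjusted p of 0.05 was 0 with genotype alone and 1, Frzb, without a filter, 1 with DESeq2, and 0 to 1 with a library left out. The count past an unadjusted p of 0.05 was 8, against 3 to 11 with a library left out, 4 without the wildtype libraries 1 and 3, 5 with the mesenchyme covariate and 3 with the stria covariate. Over all tested genes, 19 passed an adjusted p of 0.05, against 36 without a filter, 85 with DESeq2, 11 to 27 with a library left out, 9 without the wildtype libraries 1 and 3, 10 with the mesenchyme covariate and 9 with the stria covariate. None of the further pathway genes passed an adjusted p under the 16 alternatives. The cause of these shifts was not tested.

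Some fold changes near 0 changed sign: Lgr4 to -0.0009 and Sfrp1 to -0.0047 without a filter, Wnt5a to 0.0023 and Fzd3 to 0.0039 without the wildtype libraries 1 and 3. Rspo3, at -0.49 with genotype alone, changed sign to 0.036 with the mesenchyme covariate. With a library left out, the log2 fold change ran from -0.037 to 0.028 for Lgr4, from -0.067 to 0.0079 for Lgr5, from -0.061 to 0.042 for Sfrp1 and from -0.064 to 0.024 for Fzd3. Frzb stayed between -1.02 and -0.48 and Notum between -0.44 and -0.27 over the 16 alternatives. Wnt11 had no value with at least 50 counts in 4 libraries.

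With the replicate number as a block, 0 members passed an adjusted p, 9 passed an unadjusted p and 15 genes passed overall. Deviations of same-numbered libraries correlated at 0.101, 0.202, -0.256 and -0.129. Libraries 1 and 2 labelled knockout correlated best with the wildtype library of their number, while libraries 3 and 4 did not. No wildtype library correlated best with the library of its own number. So few values cannot decide whether the number pairs the libraries. Dkk1, at 1 to 15 counts, was too low to test with the filter. The SE was widest for Wnt11 (0.28, on 28 to 95 counts), Rspo1 (0.27, on 31 to 81) and Dkk2 (0.24, on 236 to 738), and the part of depth in this was not tested.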

Other observations

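Several members differed between libraries of 1 group more than between the groups. Dkk2, an antagonist that binds Lrp5 and Lrp6, had 12.9, 14.1, 18.4 and 22.0 CPM in wildtype libraries 1 to 4 and 8.0, 14.1, 14.2 and 21.2 CPM in the libraries labelled knockout, a 2.65-fold range within the latter. Wnt4 had 10.9, 9.18, 14.7 and 15.7 CPM in wildtype and 7.05, 11.3, 12.5 and 12.8 CPM in the libraries labelled knockout. Rspo1 had 1.22 to 2.39 CPM in wildtype, and 1.05, 1.49, 1.76 and 2.11 CPM in those labelled knockout. In all 3 genes, library 4 was the highest of its group and library 1 labelled knockout the lowest of its own. The supporting cell gene Otoa, at 577 CPM in wildtype library 4 and 561 CPM in library 4 labelled knockout, was also highest in those libraries, and at 361 CPM lowest in library 1 labelled knockout. These genes were chosen after their values were seen, and no cause was tested.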
